A study of Mus musculus with 2 samples.

Results

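The BCL2 family decides whether the outer mitochondrial membrane of a cell stays intact. Its 10 members examined here were the rows of the deposited expression table whose gene name was on a fixed list, and all 10 were found among the 30868 listed features. They comprised 3 anti-apoptotic genes (Bcl2, Bcl2l1 and Mcl1), 2 effector genes (Bax and Bak1) and 5 BH3-only genes (Bid, Bad, Bbc3, Pmaip1 and Bcl2l11). RNA came from MIN6, a mouse insulinoma line used as a model of the insulin-secreting beta cell. There was 1 library named NGP, labelled as normal, and 1 named HGP, labelled with high glucose and palmitate, and they are called normal and treated below. Both sample records carry the same treatment note, which gives palmitate at 0.4 mmol/l, glucose at 33.3 mmol/l and BSA at 0.5%, so what the normal cells received is not stated separately. The growth medium on both records was DMEM with 15% FBS. The labels name no genetic change and give no duration of treatment. As a model, MIN6 is 1 transformed line grown without other islet cells.

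Effector proteins of the family, BAX and BAK, form pores in the outer mitochondrial membrane, through which cytochrome c leaves to start caspase activation. Anti-apoptotic proteins hold the effectors and the BH3-only proteins in check, and BH3-only proteins carry the signal of a given stress to both. In beta cells this switch is best known from work on fatty acid excess, endoplasmic reticulum stress and cytokines. The proteins are also controlled by cleavage, phosphorylation and rapid turnover, none of which RNA counts show.

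The classes share the BH3 motif, the short helix by which family members bind each other. A search of the longest GENCODE M21 coding sequence (GRCm38) of 9 members found its core exactly once in each of the 9. Pmaip1 was not searched here. The search asked for leucine, any 3 residues, a small residue, aspartate, and then an acidic residue or glycine. Matches in other coding sequences were not counted, so the search only locates the motif in these genes. The 27 bases around the core are shown because this motif is shared by the classes. They run 5′ to 3′ on the coding strand, and capitals mark the leucine codon and the codons of the small residue and the aspartate.
Bcl2, core codons 94 to 99, chr1:106712578-106712604, minus strand: accCTCcgccgggctGGGGATgacttc
Bcl2l1, core codons 90 to 95, chr2:152829700-152829726, minus strand: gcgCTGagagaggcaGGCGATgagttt
Mcl1, core codons 194 to 199, chr3:95659433-95659459, plus strand: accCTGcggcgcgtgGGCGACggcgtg
Bax, core codons 63 to 68, chr7:45466000-45466026, minus strand: tgtCTCcggcgaattGGAGATgaactg
Bak1, core codons 76 to 81, chr17:27022534-27022560, minus strand: cagCTTgctctcatcGGAGATgatatt
Bid, core codons 90 to 95, chr6:120897292-120897318, minus strand: catCTCgcccaaataGGCGATgagatg
Bad, core codons 151 to 156, chr19:6950789-6950815, plus strand: gagCTCcgaaggatgAGCGATgagttt
Bbc3, core codons 141 to 146, chr7:16313770-16313796, plus strand: cagCTGcggcggatgGCGGACgacctc
Bcl2l11, core codons 150 to 155, chr2:128147147-128147173, plus strand: gagCTGcggcggatcGGAGACgagttc
The small residue was glycine in 7 of the 9 genes, serine in Bad and alanine in Bbc3. Of the 27 positions, 6 held the same base in all 9 genes. The closest pair was Bbc3 and Bcl2l11, with 21 of 27 bases identical, and the most distant pairs, such as Bax and Bcl2l1, shared 11.

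Values are RPKM, reads scaled by the length of the feature and by the library's read total, so levels of different genes can be compared per length. The libraries held 44149406 reads (normal) and 43727919 reads (treated), recovered as whole numbers from the RPKM values. With 1 library per group, no difference below has a replicate check and no p-value was computed. Brackets after a ratio of treated to normal RPKM give its exact 95% counting interval, which covers counting error only and compares these libraries, not the conditions. Fold calls were made on a log2 scale after adding 0.5 to each RPKM, among the 13947 features whose mean RPKM reached 1. That scale understates differences of low genes. In bulk RNA, fewer cells of a type and less RNA per cell cannot be told apart.

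The cells carried the markers of their label. All 10 beta cell markers had a mean RPKM of at least 1, and their summed level was 10975 RPKM in the normal library, compared with 10338 in the treated one. That sum is mostly Iapp and Chga, at ratios of 1.01 and 0.980, and most of the others were lower in the treated library. The insulin genes Ins1 and Ins2 stood at 0.527 (0.496 to 0.560) and 0.606 (0.599 to 0.614), Mafa at 0.712, G6pc2 at 0.726, Pdx1 at 0.771, Slc2a2 at 0.773, Nkx6-1 at 0.886 and Nkx2-2 at 0.986 (0.941 to 1.03). No acinar, fibroblast or endothelial marker reached a mean RPKM of 1, and their summed levels in the normal and the treated library were 0.118 and 0.129 (1 of 4 markers found), 0.394 and 0.426 (3 of 5) and 0.0873 and 0.114 (3 of 3). The endothelial marker Kdr had 0 reads in both. The leukocyte markers summed to 0.985 and 2.10 RPKM, of which Cd68 made up 0.901 and 2.02, while Cd3e had 0 reads. Ductal markers summed to 242 and 411 RPKM, almost all of it from Spp1 at 226 and 393 RPKM, and the ductal keratin gene Krt19 had 0 reads. Of the alpha cell markers 2 of 4 were found, with a sum of 64.4 and 69.6 RPKM, mostly Ttr. The other, Gcg, had 7.31 and 4.68 RPKM, a ratio of 0.641 (0.554 to 0.741). Sst made the delta cell sum of 7.45 and 9.68. The part of any of these markers in the ratios below was not tested.

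In brief, most of the family differed little between the libraries. Mcl1 and Bid were higher in the treated library, Bax, Bcl2 and Bbc3 were slightly lower, and the counting intervals of the others included a ratio of 1. Of the 9 members with a mean RPKM of at least 1, 3 had a log2 ratio above 0 and 6 below it. Their median was -0.05, against 0.00 for all 13947 features, of which 7070 lay above 0 and 6877 below. None of the 9 was past 1.5-fold, where 1.74% of all features were higher and 1.48% lower. At a lower threshold, 25% higher or lower by the same factor, 2 of the 9 were higher (5.89% of all features) and 0 were lower (6.04%). The counting interval lay above 1 for 2 of the 9 (22.0% of all features) and below 1 for 3 (22.3%), shares close to those of the whole table for so few genes. Of all table values from 1 to 19 reads 76.1% were even, and with every 2 reads taken as 1 pair the wider intervals of Bcl2 (0.776 to 1.01) and Bbc3 (0.744 to 1.03) include 1.

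Levels spanned a wide range within the family. In the normal library the order from high to low was Bax, Mcl1, Bad, Bcl2l1, Bbc3, Bak1, Bcl2l11, Bcl2, Bid and Pmaip1. The treated library had the same order. The 95% counting intervals of neighbours in that order did not overlap, except those of Bbc3 and Bak1 in the treated library. Lengths are unions of all annotated exons, from 1576 bases for Bax to 9157 for Bcl2, so genes with long or rarely used exons read low on this scale.

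**Figure D1:**
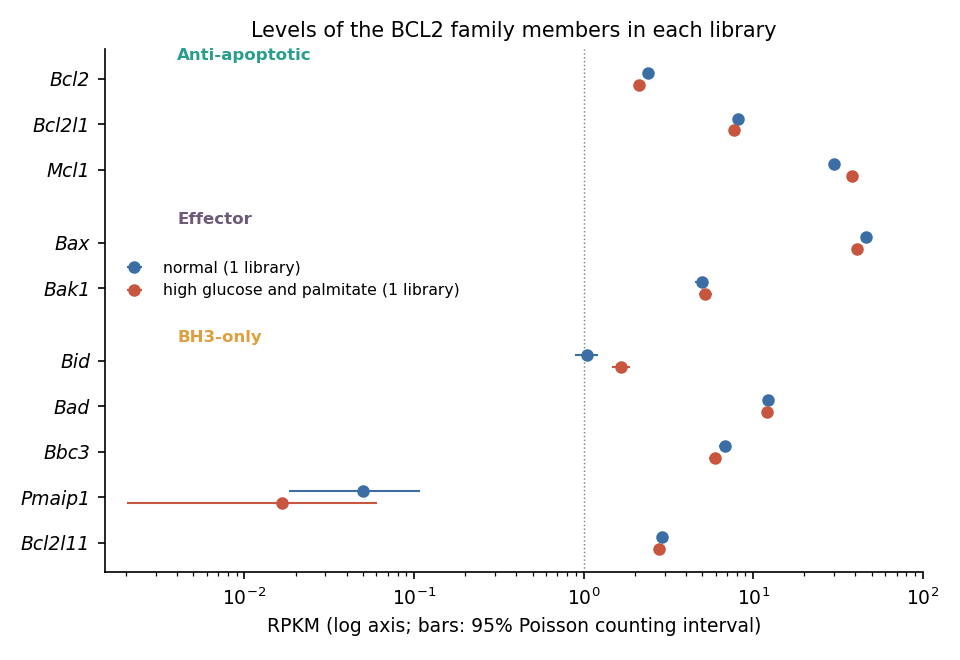
RPKM of each member (log axis) in the normal library (blue) and the treated library (red), 1 library each, grouped by class, with 95% Poisson counting intervals; the dotted line marks 1 RPKM. Bax and Mcl1 lie highest at 30.1 to 46.3 RPKM, and Pmaip1 lies far below all others at 0.0497 and 0.0167.

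Mcl1 stood apart among the anti-apoptotic genes. It encodes a short-lived protein that holds BAK and several BH3-only proteins, and its RNA and protein both turn over fast. Mcl1 had 30.1 RPKM in the normal library, compared with 38.4 in the treated one, from 4538 and 5739 reads. The treated library was higher, at a ratio of 1.28 (1.23 to 1.33), and 5.10% of all tested features had a higher log2 ratio. The gene spans chr3:95566099-95570487 (GRCm39, plus strand), and its exons overlap no other listed gene.

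The other anti-apoptotic genes were not higher. Bcl2, the founding member of the family, had 2.41 RPKM in the normal library, compared with 2.14 in the treated one, from 975 and 855 reads. The treated library was lower, at a ratio of 0.885 (0.807 to 0.972). Bcl2l1, whose main product BCL-XL guards the mitochondria of many long-lived cells, had 8.17 and 7.70 RPKM, a ratio of 0.942 (0.879 to 1.01). Its interval included 1. In both libraries Mcl1 was the most abundant of the 3 genes per length, with 74.0% of their summed RPKM in the normal library, compared with 79.6% in the treated one. Bcl2l1 and Mcl1 also give spliced forms whose products promote death, and values per gene do not separate these forms.

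The effector genes differed in level far more than either differed between libraries. Bax, which encodes an effector that is largely cytosolic until activated, had 46.3 RPKM in the normal library, compared with 41.1 in the treated one. These values came from 3220 and 2832 reads. The treated library was lower, at a ratio of 0.888 (0.844 to 0.934), and 16.8% of tested features had a lower log2 ratio. Bak1, which encodes the effector that sits in the mitochondrial membrane, had 4.96 and 5.23 RPKM, a ratio of 1.05 (0.933 to 1.19) with an interval that included 1. Bax spans chr7:45111121-45116322 (minus strand), and 192 of its 1576 bases are shared with the predicted gene Gm45808 on the same strand. Gm45808 had 83.9 RPKM in the normal library, compared with 73.1 in the treated one, a ratio of 0.871, and how reads in the shared bases were assigned is not given. Bak1 exons share 437 bases with Ggnbp1 and 177 with Gm50253, both on the opposite strand, at ratios of 1.03 and 0.986.

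Among BH3-only genes Bid had the largest ratio. Its protein links death receptors to mitochondria once caspase-8 has cleaved it. Bid had 1.04 RPKM in the normal library, compared with 1.66 in the treated one, from 163 and 258 reads. The treated library was higher, at a plain ratio of 1.60 (1.31 to 1.96). On the log2 scale with the pseudocount the difference was 0.49, which is below 1.5-fold, and 2.60% of tested features were higher still. At this low level 92.7% of tested features had a higher mean RPKM. The ratio of the summed level of the class was 0.978 with Bid and 0.949 without it. Bid spans chr6:120868891-120893814 (minus strand). Of its exon bases, 628 (17.7%) are shared with Bcl2l13 on the opposite strand. Bcl2l13 had 5.05 and 5.09 RPKM, a ratio of 1.01 (0.946 to 1.07), and the part of the overlap in the value of Bid was not tested.

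The remaining BH3-only genes were level or slightly lower. Bad, whose product is held by adaptor proteins when phosphorylated, was the most abundant of the class, with 12.2 RPKM in the normal library, compared with 12.1 in the treated one. Its ratio was 0.989 (0.917 to 1.07). Exons of Bad share 1048 of 2558 bases (41.0%) with ENSMUSG00000120718 and 524 with Gpr137, both on the opposite strand, at ratios of 0.965 and 1.10. Bbc3, which encodes PUMA, a potent killer controlled by p53 and other factors, had 6.80 RPKM in the normal library, compared with 5.96 in the treated one. It was lower in the treated library, at a ratio of 0.877 (0.781 to 0.984), from 638 and 554 reads. Bcl2l11, which encodes BIM, had 2.90 and 2.78 RPKM, a ratio of 0.960 (0.878 to 1.05). Neither Bbc3 nor Bcl2l11 shares exons with another listed gene.

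Pmaip1 had almost no reads in either library. It encodes NOXA, a partner of MCL1 that promotes its turnover. Pmaip1 had 6 reads in the normal library, compared with 2 in the treated one, that is 0.0497 and 0.0167 RPKM. The ratio of 0.337 had an interval from 0.0332 to 1.88, so no difference was detectable at this depth. It was the only member under a mean RPKM of 1 and entered no count or median.

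**Figure D2:**
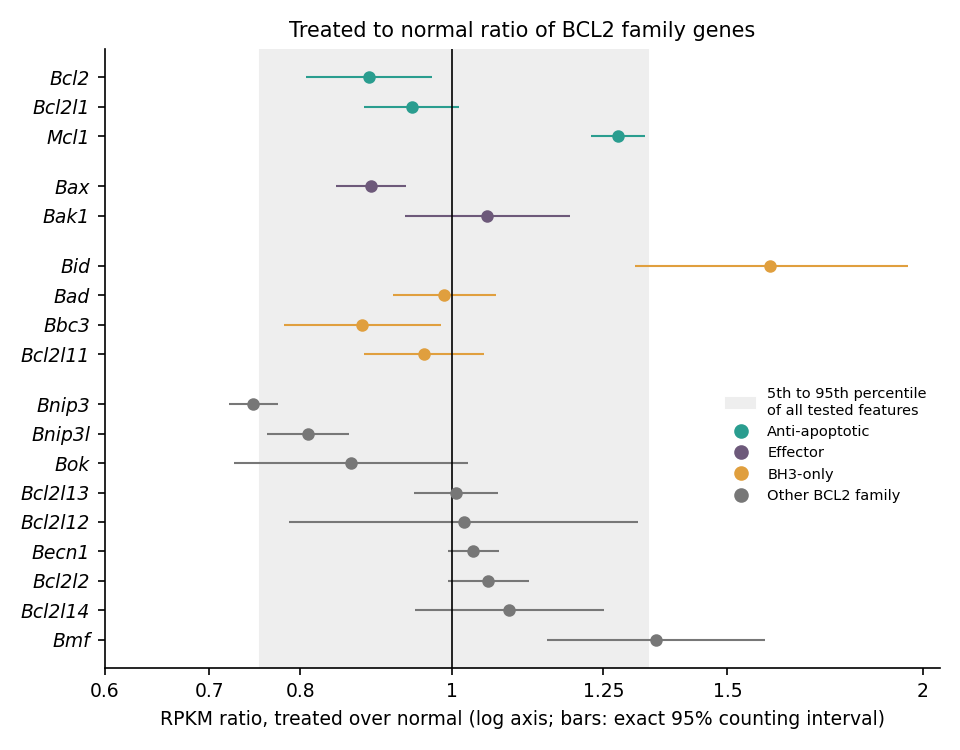
Ratio of treated to normal RPKM (log axis) for the 9 members with a mean RPKM of at least 1, coloured by class, and for 9 other BCL2 family genes (grey points), with exact 95% counting intervals; the grey band holds the middle 90% of all tested features. Mcl1 and Bid lie right of 1 and Bax, Bcl2 and Bbc3 slightly left of it, while among the others Bnip3 and Bnip3l lie lowest and Bmf highest.

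Summed per class, the anti-apoptotic genes were higher and the effectors lower in the treated library, and each sum followed 1 gene. The anti-apoptotic sum was 40.7 RPKM in the normal library, compared with 48.2 in the treated one, a ratio of 1.19 (1.15 to 1.23). Without Mcl1 that ratio was 0.929, on the other side of 1. The effector sum was 51.2 and 46.3 RPKM, a ratio of 0.904 (0.863 to 0.947), and without Bax, which made up 90.3% and 88.7% of it, the ratio was that of Bak1, 1.05. The BH3-only sum was 23.0 and 22.5 RPKM, a ratio of 0.978 (0.927 to 1.03). All 10 members together had 114.9 and 117.0 RPKM, a ratio of 1.02 (0.993 to 1.05). Intervals of sums are approximate and come from Poisson error of the reads. As a share of the summed RPKM, anti-apoptotic genes made up 35.4% in the normal library, compared with 41.2% in the treated one, effectors 44.6% and 39.6%, and BH3-only genes 20.0% and 19.2%. The median log2 ratios of the classes, -0.08 for 3 anti-apoptotic, -0.05 for 2 effector and -0.03 for 4 measured BH3-only genes, all lay just below 0. The anti-apoptotic class therefore had a sum above 1 and a median below 0.

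**Figure D3:**
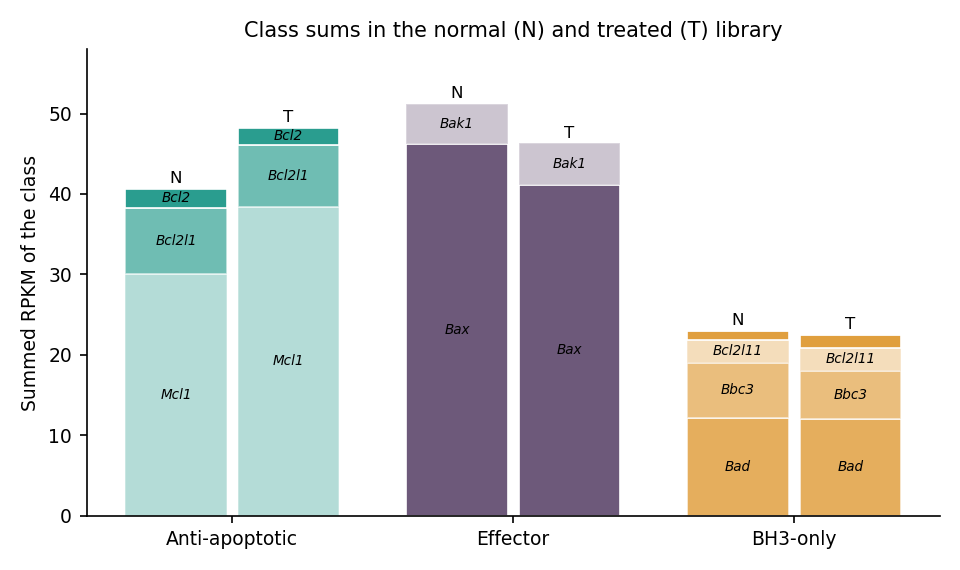
Summed RPKM of each class in the normal (N) and treated (T) library, 1 library each, stacked by gene. The anti-apoptotic bar is taller in the treated library through Mcl1, the effector bar is shorter through Bax, and the BH3-only bars are nearly equal.

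Levels of opposed genes were also compared within each library, where scaling between libraries has no effect. The anti-apoptotic sum was 0.793 times the effector sum in the normal library, compared with 1.04 times in the treated one, a change by a factor of 1.31 (1.24 to 1.39). Against the BH3-only sum it was 1.77 and 2.14 times, a factor of 1.21 (1.14 to 1.29). Mcl1 over Bax went from 0.650 to 0.934, a factor of 1.44 (1.35 to 1.53), whereas Bcl2 over Bax was 0.0521 and 0.0520, a factor of 0.997 (0.898 to 1.11). Bcl2l1 over Bax had a factor of 1.06 (0.974 to 1.16). The often quoted ratio of Bcl2 to Bax was thus nearly equal in these libraries, while that of Mcl1 to Bax differed. Over Bak1 the factors were 0.840 (0.723 to 0.977) for Bcl2, 0.894 (0.779 to 1.03) for Bcl2l1 and 1.21 (1.07 to 1.37) for Mcl1. Against the BH3-only genes that MCL1 can hold, Mcl1 over Bcl2l11 had a factor of 1.33 (1.21 to 1.46) and Mcl1 over Bbc3 one of 1.46 (1.29 to 1.64). Against Bid the direction was the opposite, at 0.799 (0.654 to 0.976) for Mcl1, 0.590 (0.479 to 0.726) for Bcl2l1 and 0.554 (0.446 to 0.688) for Bcl2. Bcl2l1 over Bad and Bcl2l1 over Bcl2l11 had factors of 0.953 (0.860 to 1.06) and 0.982 (0.878 to 1.10). Pairs share genes and are not independent of each other.

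**Figure D4:**
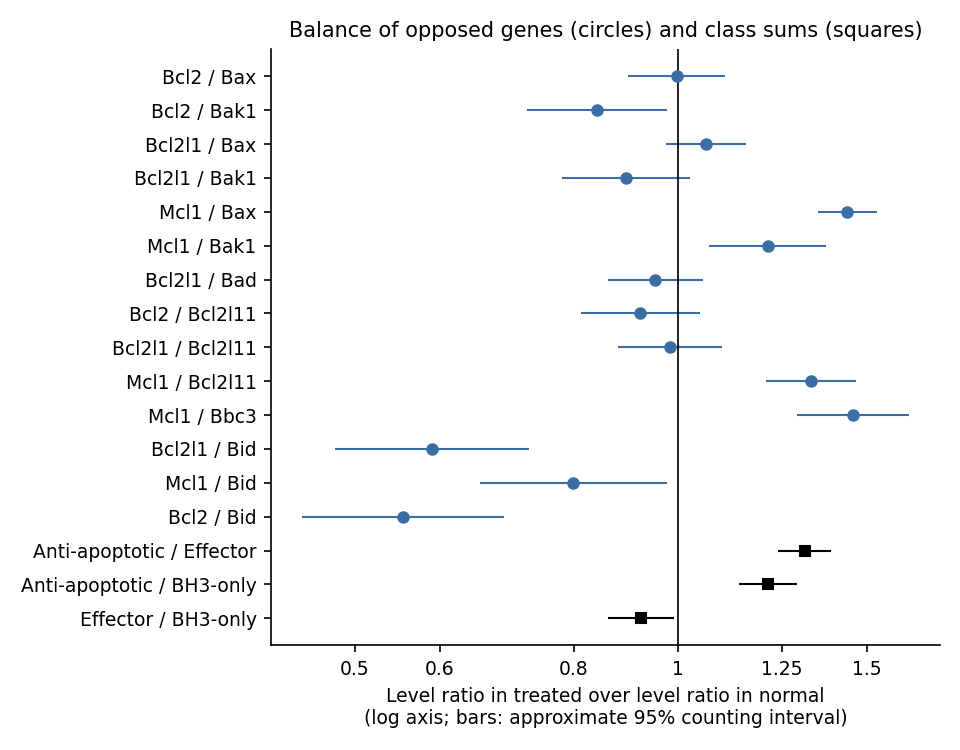
Level ratio of each pair in the treated library divided by that in the normal library (log axis), for single genes (circles) and class sums (squares), with approximate 95% counting intervals. Pairs with Mcl1 above Bax, Bak1, Bcl2l11 or Bbc3 lie right of 1, pairs with Bid below the line of the fraction lie left of 1, and Bcl2 / Bax lies at 0.997.

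Promoters are shown for Mcl1 and Bid, the members at least 25% higher on the log2 scale. Each run holds the 250 bases before the RefSeq start of the gene in GRCm38.p6, read 5′ to 3′ on the strand of the gene. The letters searched on both strands were CACGTG (the E-box), GGGCGG (the GC box) and CCAAT, and capitals mark every match.
Mcl1, chr3:95658471-95658720, plus strand: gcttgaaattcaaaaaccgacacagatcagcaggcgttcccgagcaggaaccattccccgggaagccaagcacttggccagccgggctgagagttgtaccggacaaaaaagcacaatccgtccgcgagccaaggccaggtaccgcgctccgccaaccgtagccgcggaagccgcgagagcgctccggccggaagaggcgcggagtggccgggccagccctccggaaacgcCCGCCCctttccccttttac
Bid, chr6:120916825-120917074, minus strand: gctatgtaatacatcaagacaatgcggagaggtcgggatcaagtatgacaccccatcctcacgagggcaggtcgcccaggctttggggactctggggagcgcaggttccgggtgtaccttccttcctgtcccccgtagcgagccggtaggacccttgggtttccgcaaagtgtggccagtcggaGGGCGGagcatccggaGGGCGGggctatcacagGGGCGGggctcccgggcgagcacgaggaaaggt
The Mcl1 window held 1 GC box and the Bid window 3, and neither held an E-box or CCAAT in these letters. Among all 32851 windows of the same length, 32.7% held a GC box, 6.02% an E-box and 33.8% CCAAT. Among members that were not higher, GC boxes per window varied widely, with 7 in the Bcl2 window and 1 to 7 in 3 windows of Bbc3. The windows of Bad held 3 and 0, and those of Bcl2l11 held 3 and 2. The Bax window held 1 E-box and 2 GC boxes, and the windows of Bcl2l1 and Bak1 held none of the 3 motifs. An E-box and CCAAT also lay in 1 window of Bbc3. CCAAT lay 1 and 2 times in the windows of Bcl2l11 and 1 time in 1 window of Bad. A match here describes the letters only.

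Other BCL2 family genes went both ways. Of 16 further family genes 15 were in the table and 9 had a mean RPKM of at least 1, with a median log2 ratio of 0.02, 6 above 0 and 3 below. Bnip3, a hypoxia-induced gene whose product marks mitochondria for removal, was the most abundant at 70.4 RPKM in the normal library, compared with 52.5 in the treated one. Its ratio of 0.747 (0.720 to 0.774) made it the only one past the 25% threshold on the log2 scale with the pseudocount, and 504 of its bases are shared with Gm45507 on the opposite strand, at 0.721. Its relative Bnip3l had 14.2 and 11.5 RPKM, a ratio of 0.810 (0.762 to 0.860). Bmf, a BH3-only gene, had 1.16 and 1.57 RPKM, a plain ratio of 1.35 (1.15 to 1.59), but with the pseudocount its log2 ratio of 0.32 fell just short of that threshold. Bok, an effector relative, stood at 0.862 (0.725 to 1.02) and the anti-apoptotic gene Bcl2l2 at 1.06 (0.994 to 1.12), both with an interval that included 1. The same held for Becn1 at 1.03, Bcl2l12 at 1.02, Bcl2l13 at 1.01 and Bcl2l14 at 1.09.

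Several other family genes had few or no reads. Bcl2l10 and Bcl2a1d had 0 reads in both libraries, and 3 reads, the limit a count of 0 allows, would be 0.0549 RPKM for Bcl2l10 in the normal library. Bcl2a1b had 4 and 0 reads and Bcl2l15 13 and 6. Hrk, a BH3-only gene of neurons, had 193 and 201 reads, or 0.770 and 0.810 RPKM. Bik, a BH3-only gene whose product acts at the endoplasmic reticulum, had 22 reads in the normal library, compared with 2 in the treated one. Its ratio of 0.0918 (0.0105 to 0.373) stood at levels of 0.313 and 0.0287 RPKM. Bik falls outside the rule for named genes and was singled out after its values were seen.

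Genes that act after the mitochondrial step differed little between the libraries. Of 14 measured caspases, mitochondrial death factors and caspase inhibitors 9 were above 0 and 5 below, with a median log2 ratio of 0.05 and none past the 25% threshold, near the split of all features (7070 above and 6877 below). Htra2, a mitochondrial protease gene, stood at 1.23 (1.08 to 1.41). Apaf1, the scaffold that cytochrome c activates, stood at 1.15 (1.02 to 1.31) and Aifm1, the gene of a flavoprotein that mitochondria release in cell death, at 0.930 (0.881 to 0.983). In the death receptor arm, which reaches mitochondria through Bid, 5 of 9 measured genes were above 0 and 4 below, with a median of 0.04. The death ligand gene Tnfsf10 stood at 1.26 (1.07 to 1.47), the caspase-8 inhibitor Cflar at 1.12 (1.07 to 1.19), the TNF receptor gene Tnfrsf1a at 1.11 (1.02 to 1.20) and the adaptor Tradd at 0.851 (0.716 to 1.01).

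Partners in the membranes showed no common direction. Of 11 genes for outer membrane channels, BID receptors and mitochondrial dynamics 4 were above 0 and 7 below, with a median of -0.03. Mtch2, which encodes a receptor for BID, stood at 0.853 (0.799 to 0.910), its relative Mtch1 at 0.900 (0.868 to 0.934), the channel gene Vdac1 at 0.921 (0.881 to 0.962) and the fusion gene Mfn2 at 0.919 (0.886 to 0.953). Of 9 endoplasmic reticulum partners and co-chaperones 4 were above 0 and 5 below, with a median of -0.01. The calcium release channel gene Itpr3 stood at 0.785 (0.726 to 0.849) and Fkbp8, which tethers BCL2 to mitochondria, at 0.875 (0.849 to 0.902). The co-chaperone gene Bag3 stood at 1.16 (1.09 to 1.24) and Tmbim6, the gene of BAX inhibitor 1, at 1.13 (1.09 to 1.18).

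Genes that control the proteins after translation were mixed as well. Of 15 kinases, phosphatases and adaptors that act on BAD 9 were above 0 and 6 below, with a median of 0.02. The kinase gene Pim3 was lowest and the only one past the 25% threshold, with 2.83 RPKM in the normal library, compared with 1.90 in the treated one, a ratio of 0.673 (0.561 to 0.807). The adaptor gene Ywhah stood at 0.806 (0.794 to 0.819), the protein kinase A gene Prkaca at 0.844 (0.805 to 0.886) and Ywhag at 1.10 (1.07 to 1.13). Of 13 genes that control the turnover or anchoring of MCL1 and BIM 7 were above 0 and 6 below, with a median of 0.04. Dynll1, a dynein light chain that can anchor BIM, stood at 1.21 (1.16 to 1.27), and Usp9x, which removes ubiquitin from MCL1, at 1.13 (1.10 to 1.15). The ubiquitin ligase subunit gene Rnf7 stood at 1.11 (1.01 to 1.23) and the kinase gene Mapk3, whose pathway marks BIM for removal, at 0.899 (0.854 to 0.947).

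Transcription regulators of the family had the highest median of the lists measured here. Of 17 measured genes 12 were above 0 and 5 below, with a median log2 ratio of 0.15 against 0.00 for all features. Atf3, a stress-induced factor, stood at 1.70 (1.60 to 1.80) and was the only one past 1.5-fold, where 1.74% of all features were higher. With Atf3, 4 of the 17 were at least 25% higher, compared with 5.89% of all features. The others were Myc at 1.48 (1.15 to 1.90), from 108 and 158 reads, Trib3 at 1.27 (1.21 to 1.33) and Nfkb1 at 1.28 (1.21 to 1.34). Trp53, which encodes p53 and is named outside the rule as the regulator of Bbc3 and Bax, had 4.84 and 5.27 RPKM, a ratio of 1.09 (0.993 to 1.20). Ddit3, named for its known link to Bcl2l11 and Bcl2, stood at 0.857 (0.836 to 0.878). No list was tested against the others.

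**Figure D5:**
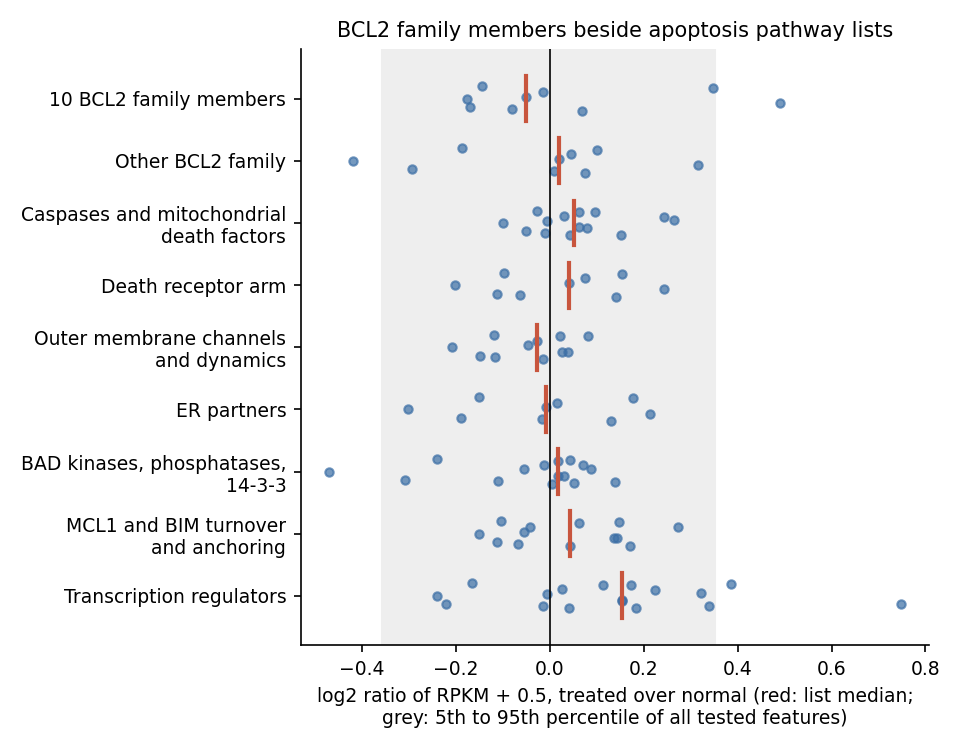
log2 ratio of RPKM plus 0.5 for each measured gene (blue points; vertical scatter only separates points) and the list median (red), for the 9 measured members and 8 pathway lists; the grey band holds the middle 90% of all 13947 tested features. The members scatter around a median of -0.05 with Mcl1 and Bid at the right, and the transcription regulators have the highest median at 0.15.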

How the data were processed

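The authors used genome build GRCm39, Trimmomatic 0.36 and edgeR 3.12.1, per the submitters' processing notes. No source used here gives the aligner, the counting tool, the annotation or the use of strand. Per the labels' protocols, 1 µg of Trizol-extracted RNA went into a stranded mRNA kit. The deposited values are RPKM, 1 column per library, matched to samples by title. RPKM times length and library total gave whole reads for 100% of values within 0.01 read. Of values from 1 to 19 reads 76.1% were even, as if mates were counted separately, so intervals may be too narrow.

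RPKM ratios, Clopper-Pearson intervals, class sums with Poisson error and exon overlaps were computed with Python 3.11.15, numpy 2.4.6, pandas 2.3.3 and scipy 1.17.1. Only the fold calls and Clopper-Pearson intervals of single features were tested on simulated reads. Those reads were drawn independently, so the test does not cover reads counted in pairs. No p-value was computed. Members and lists were chosen with earlier results of these data known. Named were all 10 members, other family genes with mean RPKM of at least 1, and up to 4 genes per other list by size of log2 ratio. Alternatives changed the pseudocount, scaling, filter, threshold, background features, read pairing and class membership. Sequences are from RefSeq and GENCODE M21 (GRCm38), coordinates of genes from the deposited table (GRCm39).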

Additional observations from a re-analysis of the deposited data

How the results depend on the processing

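With 1 library per group, depth limits the genes with few or no reads, among them Pmaip1, Bik, Bcl2a1b, Bcl2a1d and Bcl2l10, and no setting replaces a replicate. The log2 ratios of the 10 members moved by less than their counting error in all 50 recomputations with other pseudocounts or scalings. Those scaled to the same total of reads repeat the main values by construction, since RPKM already has that scaling. Median-of-ratios scaling shifted the median of all features from 0.0028 to -0.0098. No member was past 1.5-fold at the pseudocount of 0.5. At a pseudocount of 0.1, 1 member (Bid) was higher by that threshold, where 2.41% of all tested features were. Lowering the threshold to 25% gave 2 higher members (Mcl1 and Bid), where 5.89% of all tested features were higher. The anti-apoptotic median was 0.13 with a mean RPKM of at least 5, and also without genes overlapping the opposite strand, since both settings drop Bcl2. Leaving 1 gene out, the anti-apoptotic sum ratio was 1.248 without Bcl2l1 and 0.929 without Mcl1, and the effector ratio 1.05 without Bax. The BH3-only ratio was 0.899 over members whose exons overlap no other gene, which leaves out Bid and Bad. With 1 read per pair, 3 counting intervals excluded 1 (Mcl1, Bax and Bid) instead of 5, those of Bcl2 and Bbc3 then including it. No share of all features is given for that setting. No paired analysis was possible because each group had 1 library.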
